A study of Mus musculus with 3 samples.

Results

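The genes described here are 10 components of the systems that set vascular tone: Agtr1a, Ace, Agt, Ednra, Ednrb, Npr3, Htr2a, Ptger3, Adra1a and Gucy1a1. They were chosen by symbol, as 10 of the 33696 gene features in the tables, and all 10 symbols were found. Their RNA was followed by single-nucleus RNA sequencing across the cell classes of the mouse abdominal aorta in 3 groups. Every animal carried the ApoE-/- genotype on the C57Bl/6 strain and ate a high-fat diet. For 20 weeks the animals breathed room air in 1 group and cigarette smoke in the other 2, which were divided by the absence or presence of an abdominal aortic aneurysm (AAA). ApoE-/- mice lack apolipoprotein E, which clears lipoprotein remnants from the blood, and they develop atherosclerosis; the room air controls carried this defect too. How many animals were behind a library, and their age at the start, are not stated in the sources used here. Each group was 1 library of nuclei taken from frozen tissue and purified with anti-nucleus beads. With 1 library a group there was no replicate check and no test, and every comparison is one between libraries.

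Angiotensinogen, the product of Agt, is cut by renin and then by angiotensin-converting enzyme (Ace) to angiotensin II, which constricts vessels through the type 1 receptor (Agtr1a and, in rodents, a close copy called Agtr1b). Endothelin made by endothelium constricts smooth muscle through Ednra, whereas Ednrb on other cells also takes endothelin out of circulation. Npr3 clears natriuretic peptides, Htr2a, Ptger3 and Adra1a are receptors for serotonin, prostaglandin E2 and noradrenaline, and Gucy1a1 is a subunit of the soluble guanylyl cyclase that answers nitric oxide with cyclic GMP.

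Levels are given as CPM, the usual counts-per-1000000 scale, that is the UMIs (unique molecular identifiers, 1 for each captured RNA molecule) of a gene, scaled to the UMIs of all genes in the same class of nuclei. Brackets after a CPM hold its exact 95% Poisson interval, and ratios of CPM carry exact 95% conditional binomial intervals; these cover counting error only. The room air, smoke and aneurysm libraries kept 11022, 14001 and 5707 nuclei, with medians of 4058, 6225 and 1443 UMIs each. Between 17 and 36 barcodes were shared by each pair of libraries, at most 0.456% of the smaller one. The nuclei fell into 26 clusters, and 10 classes could be named from marker genes. Smooth muscle-like nuclei numbered 1702, 2230 and 1245 in room air, smoke and aneurysm, fibroblast-like nuclei 493, 675 and 748, endothelial-like nuclei 1883, 2114 and 1013, and macrophage-like nuclei 4057, 5266 and 729. Adipocyte-like nuclei numbered 37, 220 and 1239, so adipocytes were compared only between the smoke and aneurysm libraries. The make-up of several classes also differed. Cluster 13, led by Cd163 and F13a1, held 2.22%, 3.38% and 47.7% of macrophage-like nuclei, and cluster 16, led by Car4 and Cd300lg, held 3.66%, 8.33% and 35.7% of endothelial-like nuclei. Cluster 12, led by Grem1 and Grin2a, held 40.3%, 34.9% and 64.4% of smooth muscle-like nuclei. Its name is less certain than that of clusters 9 and 21. On the marker lists it scored 2.907 for smooth muscle and 2.583 for pericytes. The same scores were 4.859 and 3.051 in cluster 9, and 5.451 and 2.839 in cluster 21. Whether cluster 12 held pericytes was not tested. Values inside clusters are therefore given beside the main class values of the 10 genes; for most of the other genes named, class values alone are given. The part of this make-up in a class value was not tested otherwise. Cluster 1, whose best marker list was that of macrophages, stayed unnamed because its depth was just under the limit for a name, and held 11.4%, 7.06% and 9.29% of the nuclei of the 3 libraries. The bead purification can itself set the share of each class.

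The stretch of 250 bases ahead of the transcription start is shown for 4 genes whose levels by class the results below turn on: Ace (endothelial-like), Ednra and Npr3 (smooth muscle-like) and Ptger3 (smooth muscle-like cluster 21 and adipocyte-like). The sequences are from RefSeq (GRCm38.p6), in which 8 of the 10 genes had an entry; Agtr1a and Adra1a had none. They run 5′ to 3′ on the gene's strand, in lower case, with motif matches in capitals. The Ace stretch lies at chr11:105967698-105967947 on the plus strand, Ednra at chr8:77724453-77724702 on the minus strand, Npr3 at chr15:11907372-11907621 on the minus strand and Ptger3 at chr3:157566626-157566875 on the plus strand.
Ace: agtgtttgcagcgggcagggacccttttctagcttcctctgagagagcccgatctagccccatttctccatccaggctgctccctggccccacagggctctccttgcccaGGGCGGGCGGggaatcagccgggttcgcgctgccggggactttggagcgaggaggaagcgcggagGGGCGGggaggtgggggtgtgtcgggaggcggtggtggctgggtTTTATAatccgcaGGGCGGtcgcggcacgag
Ednra: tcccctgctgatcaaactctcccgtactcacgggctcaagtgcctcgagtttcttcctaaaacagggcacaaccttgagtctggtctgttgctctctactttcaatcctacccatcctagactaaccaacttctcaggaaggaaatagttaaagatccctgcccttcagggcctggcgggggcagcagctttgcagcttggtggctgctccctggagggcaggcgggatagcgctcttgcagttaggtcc
Npr3: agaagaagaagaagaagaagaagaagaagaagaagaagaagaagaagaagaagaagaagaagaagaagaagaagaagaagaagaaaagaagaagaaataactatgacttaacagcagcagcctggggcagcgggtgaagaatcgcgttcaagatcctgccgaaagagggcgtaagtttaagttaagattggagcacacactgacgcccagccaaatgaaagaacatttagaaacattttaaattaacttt
Ptger3: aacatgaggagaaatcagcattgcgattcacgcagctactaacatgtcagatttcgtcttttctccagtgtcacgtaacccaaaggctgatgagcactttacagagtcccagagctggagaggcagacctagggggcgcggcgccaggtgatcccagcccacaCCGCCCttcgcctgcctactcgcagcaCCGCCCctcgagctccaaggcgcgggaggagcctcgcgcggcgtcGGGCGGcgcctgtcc
The motifs searched, on both strands, were as follows. The SP1 motif was GGGCGG. The TATA box was TATAAA. The motif of GATA factors was AGATAA, and the E-box was CAGCTG. The CArG box of serum response factor and the MEF2 motif were searched too. The Ace stretch held 4 SP1 motifs, a pair of which overlap, and a TATA box match on the opposite strand that begins 31 bases ahead of the start. Ptger3 held 3 SP1 motifs. The Ednra and Npr3 stretches held none of the 6 motifs. Among all 32851 mouse promoters of this length in the table, 32.7% held the SP1 motif, 12.4% the TATA box, 9.99% the GATA motif, 13% the E-box, 1.47% a CArG box and 2.92% a MEF2 motif. The GC content was 67.2% for Ace, 54.8% for Ednra, 38.8% for Npr3 and 62% for Ptger3, beside a median of 52.4% for all promoters. A match describes the letters only.

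The genes lay mainly in particular classes of nuclei. Ednra, Npr3, Htr2a and Gucy1a1 had the largest share of their UMIs in smooth muscle-like nuclei of each library. Ace was mainly a gene of endothelial-like nuclei. Agtr1a had its largest share in fibroblast-like nuclei of each library, 44.1%, 69.7% and 39.4%. Smooth muscle-like nuclei held 39.7% of it in room air, and cluster 22 held 30.85% in aneurysm. Ednrb stood high in the Cd163 macrophage cluster and in lymphatic endothelial-like nuclei. Macrophage-like nuclei as a class held 72.35%, 77.39% and 70.54% of its UMIs in room air, smoke and aneurysm, part of them outside that cluster. Ptger3 was found mainly in adipocyte-like nuclei and smooth muscle-like cluster 21, and Adra1a in macrophage-like and adipocyte-like nuclei. The largest share was not always the highest level. In smoke, Npr3 was at 121 CPM in adipocyte-like nuclei and 72.4 in smooth muscle-like nuclei. In the aneurysm library Gucy1a1 was higher in lymphatic endothelial-like nuclei, and Htr2a in the Car4 endothelial-like cluster, than in smooth muscle-like nuclei. B-like nuclei, a class in which these receptors are not known for a role, served as a gauge of free RNA. In the smoke library they held Ace at 12.9 CPM, Ednra at 3.51, Gucy1a1 at 5.85 and Adra1a at 50.3 CPM, and Ednrb, Npr3 and Ptger3 at 1.17 CPM each. Htr2a was at 2.34 CPM there, and Agtr1a and Agt had no UMI. In the room air library the same gauge was 2.55 CPM for Ace, 17.8 for Ednra from 7 UMIs and 22.9 for Adra1a. The aneurysm library held 6 B-like nuclei, too few for such a gauge. The class at issue was therefore compared with all other nuclei of its library as well.

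**Figure D1:**
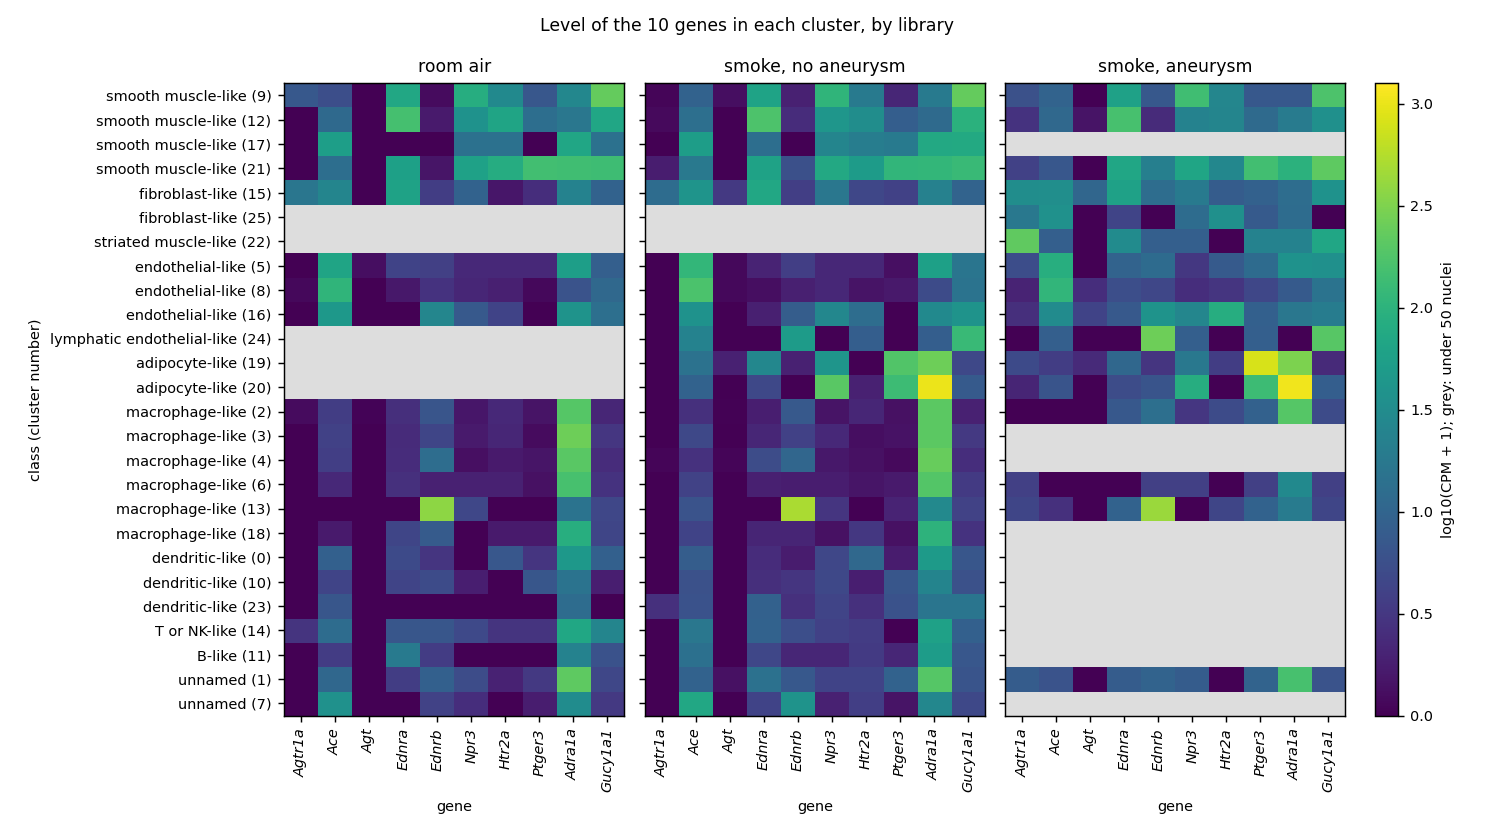
Level of the 10 genes as log10(CPM + 1), by cluster (rows, with class names) in each library (panels); grey marks clusters under 50 nuclei in that library. Bright cells show Adra1a in adipocyte-like cluster 20 (1031 CPM in smoke, 1077 in aneurysm), Ptger3 in cluster 19 of the aneurysm library (818 CPM) and Ednrb in macrophage-like cluster 13 in all 3 libraries (376, 512 and 431 CPM).

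The class that supplied most UMIs changed between libraries for Adra1a and Ptger3. Macrophage-like nuclei held 78.2% and 75.1% of the Adra1a UMIs of the room air and smoke libraries but 6.82% of those of the aneurysm library, where adipocyte-like nuclei held 80.6%. Smooth muscle-like nuclei held 88.3% and 54.4% of Ptger3 UMIs in room air and smoke, and adipocyte-like nuclei 91.5% in aneurysm. Htr2a UMIs lay in smooth muscle-like nuclei to 92% in room air, 84.4% in smoke and 46.7% in aneurysm, where endothelial-like nuclei held 33.9%. These shares follow the number of nuclei of a class as well as the level in it. Adipocyte-like nuclei made up 0.336%, 1.57% and 21.7% of the 3 libraries and macrophage-like nuclei 36.8%, 37.6% and 12.8%.

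**Figure D2:**
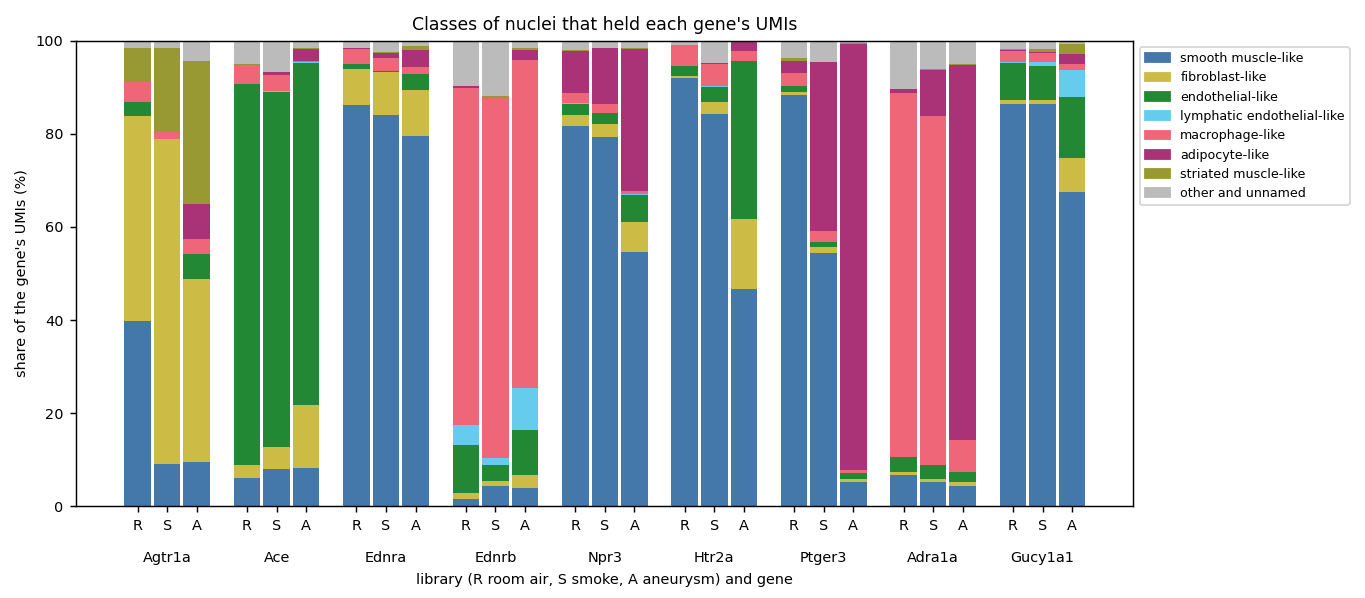
Share of each gene's UMIs (per cent, stacked bars) that lay in each class of nuclei, for the room air (R), smoke (S) and aneurysm (A) libraries; Agt, with 37 UMIs in all, is left out. Adra1a passes from mostly macrophage-like (78.2% and 75.1%) to mostly adipocyte-like nuclei (80.6%), while Ednra stays mostly in smooth muscle-like nuclei in all 3 bars.

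Components of the angiotensin system were unevenly detected. Agt, the precursor, was near the limit of detection, with 2, 19 and 16 UMIs in room air, smoke and aneurysm. Of these, fibroblast-like nuclei held 0, 9 and 8, or 0, 2.16 (0.989 to 4.10) and 5.51 (2.38 to 10.8) CPM. A count of 0 in room air allows 1.504 CPM there. Renin (Ren1) had 4, 2 and 0 UMIs, and Agtr2, the type 2 receptor, none in any library. The aorta as sampled thus showed RNA of the converting enzyme and the type 1 receptors, and next to none of renin.

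Ace was a gene of the endothelial-like nuclei. There it was at 95.2 (90.4 to 100.1), 140.8 (135.6 to 146.1) and 89.3 (79.1 to 100.6) CPM in room air, smoke and aneurysm. The smoke library was the highest, at 1.48 times room air (1.39 to 1.58), and the aneurysm library was 1.58 times lower than smoke (1.39 to 1.79) and close to room air. Of endothelial-like nuclei, 38.9%, 53.6% and 18.2% held an Ace UMI, beside 0.402% and 3.48% of B-like nuclei in room air and smoke; after thinning to 1000 UMIs a nucleus the shares were 7.97%, 11.7% and 8.89%. The higher level in smoke was found in both large endothelial-like clusters. Cluster 8 was at 105, 164 and 109 CPM, and smoke over room air was 1.56 (1.46 to 1.68). Cluster 5 was at 63.5, 110.3 and 88 CPM, and smoke over room air was 1.74 (1.48 to 2.05). Cluster 16 was lower throughout, at 44.1, 36.8 and 30.1 CPM. Aneurysm was 1.51 times lower than smoke inside cluster 8 (1.31 to 1.74) and 1.25 times lower inside cluster 5 (0.911 to 1.77). The call against smoke did not last under every setting: the class log2 ratio was -0.41 with 15 principal components and -0.43 after thinning, and that of cluster 8 was -0.24 after thinning, all under 1.5-fold. Fibroblast-like nuclei held Ace at 26.6, 42.5 and 34.4 CPM, again highest in smoke, at 1.60 times room air (1.17 to 2.22), and their cluster 15 at 25.1, 39.5 and 33 CPM. The antisense gene Gm11651 overlaps Ace and had 109 UMIs in all; whether strand was used in counting is not stated in the sources used.

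Agtr1a was scarce, with 68, 66 and 94 UMIs in the 3 libraries. Fibroblast-like nuclei held it at 15 (10.2 to 21.5), 11 (8.09 to 14.7) and 25.5 (17.9 to 35.1) CPM. The aneurysm library was the highest, at 2.31 times smoke (1.45 to 3.63) and 1.69 times room air (1.02 to 2.84). With nuclei of at least 1000 UMIs only, 19 UMIs were left in the aneurysm library. Its log2 ratio was then -0.019 to room air, which reversed, and 0.41 to smoke, under 1.5-fold. With the 10 genes and their pathway allowed among the variable genes, the log2 ratio to smoke was 0.54. Inside fibroblast-like cluster 15 the values were 15.7, 11.3 and 31.8 CPM. In smooth muscle-like nuclei Agtr1a was at 2.18, 0.251 and 2.72 CPM. All 27 UMIs of the room air library there lay in cluster 9, in 10 nuclei, 10 of them in 1 nucleus. Cluster 22 was the site of 29 of the 94 Agtr1a UMIs of the aneurysm library, 13 of them in 1 nucleus. This cluster was named striated muscle-like, but in the aneurysm library Acta1, Ckm and Myh4 were at 0 there, 6 of 9 striated muscle markers had a UMI (4734 CPM summed, 56489 in smoke), and all 9 neuron markers had one (4506 CPM), so it is called by its number.

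Smooth muscle-like nuclei held Agtr1b, the copy of the receptor, at 63.1 (58.7 to 67.7), 42.1 (39.5 to 44.7) and 17.8 (13.6 to 23.0) CPM, from 780, 1006 and 59 UMIs. The 3 libraries stood apart, room air highest and aneurysm lowest. It was highest in cluster 21, led by Col19a1 and Hpse2, at 176, 144 and 50.2 CPM. Cluster 9 was at 55.1, 19.9 and 30.6 CPM, with smoke the lowest there. Fibroblast-like nuclei, which held Agtr1a, had 10, 8 and 0 UMIs of Agtr1b. The 2 genes are close in coding sequence, and whether counting split reads between them was not tested, so both values are uncertain. In cluster 21, 364, 557 and 17 UMIs were of Agtr1b and 0, 3 and 1 of Agtr1a.

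**Figure D3:**
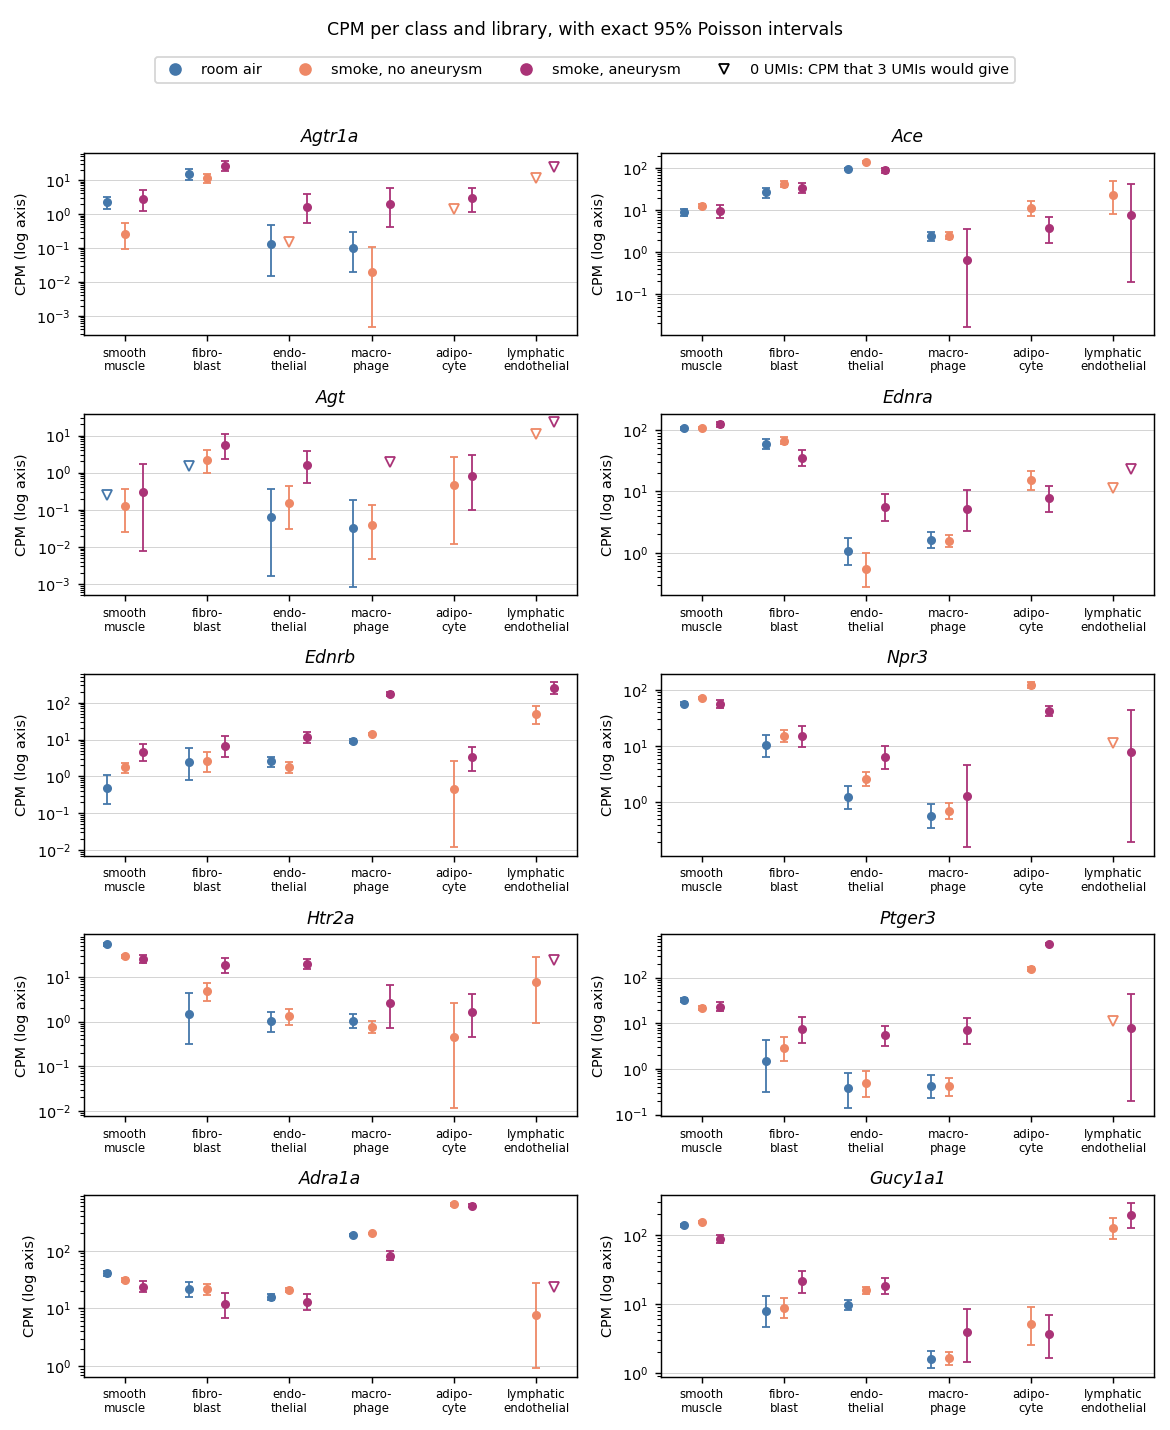
CPM (log axis) of each gene in 6 classes of nuclei, with exact 95% Poisson intervals, coloured by library; open triangles mark classes without a UMI, drawn at the CPM that 3 UMIs would give, and classes under 50 nuclei are left out. Ace in endothelial-like nuclei is highest in smoke (140.8 CPM), Htr2a in smooth muscle-like nuclei is highest in room air (54.3 CPM), and Ptger3 in adipocyte-like nuclei is highest in aneurysm (555 CPM).

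Ednra, the endothelin receptor of contractile cells, was at nearly the same level in smooth muscle-like nuclei of all 3 libraries, 106 (100.5 to 112), 107 (103 to 111) and 123 (111 to 135) CPM. Smoke over room air was 1.009 (0.944 to 1.08) and aneurysm over room air 1.16 (1.03 to 1.29). Its highest level was in cluster 12, the Grem1 cluster, whose smooth muscle and pericyte scores were close, at 150.3, 172 and 157 CPM. Cluster 9, led by Acan and Cemip, held 72.1, 62.1 and 57.6 CPM, and cluster 21 held 57, 59.8 and 68 CPM. Cluster 12 was more than 1.5 times clusters 9 and 21 in each library, and at full depth no 2 libraries differed by 1.5-fold inside these 3 clusters; after thinning, cluster 21 of the aneurysm library held 2 Ednra UMIs, at a log2 ratio to smoke of -1.18. The class value depended on the clustering, which also changed the nuclei in the class. With the libraries clustered one by one, aneurysm over room air was -1.08 on the log2 scale, from 71 and 949 Ednra UMIs. With 15 principal components it was -0.36, from 49 and 322. In the main clustering the class held 406 and 1313, so these ratios do not compare the same nuclei. Fibroblast-like nuclei held Ednra at 59.1, 67 and 35.1 CPM, lowest in aneurysm, by 1.91 times against smoke (1.41 to 2.63). Inside cluster 15 the aneurysm library was at 57.7 CPM (42.7 to 76.3), beside 70.3 in smoke, a ratio under 1.5-fold. Cluster 25, which held 26.1% of fibroblast-like nuclei in the aneurysm library and 5.93% in smoke, was at 3.31 CPM from 2 UMIs. 4933431K23Rik overlaps Ednra on the other strand and had 262 UMIs in all nuclei.

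Ednrb was high in the Cd163 macrophage cluster. That cluster was a small set in room air and smoke, 2.22% and 3.38% of macrophage-like nuclei, but 47.7% in aneurysm. Macrophage-like nuclei as a class held it at 9.12 (8.08 to 10.2), 14.4 (13.4 to 15.4) and 171 (151 to 193) CPM in room air, smoke and aneurysm. The aneurysm library was 11.9 times smoke (10.3 to 13.7). Inside cluster 13, the Cd163 cluster, however, the values were 376 (308 to 456), 512 (468 to 558) and 431 (379 to 487) CPM, and the aneurysm library was 1.19 times lower than smoke (1.02 to 1.39). All 13 macrophage markers had a UMI in cluster 13 of each library (10438 to 13162 CPM summed). Of the 8 lymphatic endothelial markers, which could bring Ednrb from another cell type, 3 to 5 had one (39.4, 97.4 and 138 CPM summed), with Mmrn1 and Ccl21a at 0 in all 3 libraries; their part was not tested. Other macrophage-like clusters were far lower, as in cluster 2 at 5.54, 6.42 and 12.5 CPM. The class difference went with the share of cluster 13 among macrophage-like nuclei, 3.38% in smoke and 47.7% in aneurysm. Lymphatic endothelial-like nuclei held Ednrb at 49 (26.1 to 83.8) and 257 (177 to 361) CPM in smoke and aneurysm, a ratio of 5.24 (2.69 to 10.8) from 13 and 33 UMIs. The room air library held 29 such nuclei and was not compared.

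The ligand side was endothelial. Edn1, which encodes endothelin-1, was at 534 (522 to 545), 709 (697 to 720) and 729.7 (699.8 to 761) CPM in endothelial-like nuclei, lowest in room air. Cluster 5 was at 258, 322 and 634 CPM and cluster 8 at 615, 928 and 928 CPM, so that aneurysm stood above smoke in cluster 5 and level with it in cluster 8. Ece1, the enzyme that matures it, was at 539, 467 and 358 CPM there, lowest in aneurysm.

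Npr3, the clearance receptor, was at 57 (52.9 to 61.4), 72.4 (69.0 to 75.9) and 56.2 (48.4 to 64.9) CPM in smooth muscle-like nuclei of room air, smoke and aneurysm. No pair of libraries differed by 1.5-fold in the class as clustered here, yet its clusters went different ways. The class value depended on the clustering, which also changed the nuclei in the class. With the libraries clustered one by one the log2 ratios were 1.17 for smoke over room air, 0.77 for aneurysm over smoke and 1.94 for aneurysm over room air. The class then held 249, 1732 and 151 Npr3 UMIs in room air, smoke and aneurysm, beside 705, 1732 and 186 in the main clustering. With 15 principal components aneurysm over room air was 0.69, from 127 and 402 UMIs. Cluster 9 was at 84.5, 106 and 141 CPM, highest in aneurysm, at 1.67 times room air (1.34 to 2.06). Cluster 12 was at 36.8, 41.7 and 22.9 CPM, lowest in aneurysm, by 1.82 times against smoke (1.35 to 2.50). Cluster 21 lay between, at 58, 73.8 and 65 CPM. Adipocyte-like nuclei held Npr3 at 121 (107 to 137) CPM in smoke and 42.6 (34.8 to 51.6) in aneurysm, 2.85 times lower (2.26 to 3.61). The direction was the same in cluster 20, led by Ucp1 and Cidea of brown fat, at 204 and 84.3 CPM, and in cluster 19, led by Retn and Adipoq of white fat, at 40.9 and 16.6 CPM. Its ligand gene Nppc had 6, 6 and 0 UMIs. Npr1, the cyclase receptor for atrial peptide, was at 78, 86 and 96.5 CPM in endothelial-like nuclei and at 30.6, 23.3 and 61.2 CPM in fibroblast-like nuclei, the latter highest in aneurysm. Npr2, the receptor for C-type peptide, was at 35.8, 30.6 and 40.5 CPM in smooth muscle-like nuclei.

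Htr2a, a contractile serotonin receptor, was lower in smooth muscle-like nuclei of both smoke-exposed libraries. It was at 54.3 (50.2 to 58.5), 28.9 (26.7 to 31.1) and 25.4 (20.2 to 31.4) CPM. The room air library stood above the other 2, by 1.88 times against smoke (1.69 to 2.10) and by 2.14 times against aneurysm (1.70 to 2.72), and the smoke and aneurysm intervals overlapped. All 3 large clusters were lower in smoke than in room air. Cluster 12 was at 64, 31.8 and 24.8 CPM, cluster 21 at 81.6, 49.5 and 26.6 CPM, and cluster 9 at 28.9, 17.9 and 25.7 CPM. Cluster 9 of the aneurysm library, with 21 UMIs, was close to room air. With 15 principal components the class held 123, 176 and 24 Htr2a UMIs, and the log2 ratios were -0.55 for smoke over room air and -0.00062 for aneurysm over room air, both under 1.5-fold. Htr2b, a related receptor, was mainly in macrophage-like nuclei, at 91.4, 112 and 65.4 CPM.

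In endothelial-like nuclei Htr2a went the other way. It was at 1.02 (0.581 to 1.65), 1.30 (0.852 to 1.91) and 19.9 (15.2 to 25.6) CPM, 15.3 times higher in aneurysm than in smoke (9.497 to 25.2). Of the 61 UMIs in aneurysm 54 lay in cluster 16, beside 1 of 16 in room air and 13 of 26 in smoke. Cluster 16 was at 3.15, 11.7 and 85.5 (64.2 to 112) CPM. There 24 of 362 nuclei of the aneurysm library held the 54 UMIs, 17 of them in 1 nucleus. All 11 endothelial markers had a UMI in cluster 16 of each library. Of the 11 smooth muscle markers, 8, 10 and 11 had one there (167, 186 and 332 CPM summed; Cnn1, Actg2 and Synpo2 at 0 in room air, Actg2 at 0 in smoke), and of 9 pericyte markers 3, 6 and 6 (50.4, 32.3 and 77.6 CPM; Higd1b and Vtn at 0 in all 3). Both sums were highest in aneurysm, and their part in the Htr2a value was not tested. With 15 principal components 5 Htr2a UMIs were left in the aneurysm endothelial-like class, and its log2 ratio to smoke was 1.54. Without the nuclei of the highest 10% of doublet scores, 37 of the 61 UMIs in aneurysm and 24 of the 26 in smoke stayed. The log2 ratio was then 3.2. Fibroblast-like nuclei held Htr2a at 1.504, 4.80 and 18.6 CPM from 3, 20 and 27 UMIs. Of the 27, cluster 25 held 21 (34.7 CPM, 21.5 to 53.1). Without the highest doublet scores, fibroblast-like nuclei kept 22 UMIs in aneurysm and 4 in smoke, at a log2 ratio of 3.76.

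Ptger3, a prostaglandin E2 receptor, was highest in adipocyte-like nuclei. It was at 158 (142 to 175) CPM in smoke and 555 (526 to 585) CPM in aneurysm, 3.52 times higher (3.12 to 3.97). The difference lay in cluster 19, the Retn cluster, at 183 (158 to 210) and 818 (773 to 865) CPM. In smoke, 69 of the 201 UMIs of cluster 19 came from 1 nucleus. Without the nucleus richest in Ptger3 in each library, the log2 ratio in cluster 19 was 2.68, above the 2.16 with it. Without the highest 10% of doublet scores it was 1.57, from 1189 and 192 UMIs. The class log2 ratio, 1.815 in the main setting, was 2.08 without the richest nucleus and 1.43 without the highest doublet scores. It was 1.475 at resolution 2, 1.625 with 15 principal components and 1.596 with no mitochondrial limit. Cluster 20, the Ucp1 cluster, was at 132 (111 to 156) and 133 (111 to 159) CPM, a ratio of 1.01 (0.787 to 1.29). All 10 adipocyte markers had a UMI in cluster 19 of both libraries, at 13299 and 23417 CPM summed, and the 13 macrophage markers summed to 2359 and 325 CPM (Cd163 at 0 in smoke). From smoke to aneurysm the adipocyte sum rose, as Ptger3 did, and the macrophage sum fell. Their part was not tested. Of adipocyte-like nuclei 34.1% and 37.6% held a Ptger3 UMI, and 9.68% and 32% after thinning; in B-like nuclei of smoke the share was 0.316%.

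In smooth muscle-like nuclei Ptger3 was at 32.3 (29.2 to 35.6), 21.4 (19.6 to 23.4) and 23.3 (18.4 to 29.1) CPM. The room air library was 1.505 times smoke (1.32 to 1.72). It was a gene of cluster 21, at 145 (129 to 163), 109 (98.9 to 120) and 145 (107 to 191) CPM, and clusters 9 and 12 stayed at 12.3 CPM or less. Ptger4, which couples to cyclic AMP, was at 61.2, 69.1 and 52.5 CPM in endothelial-like and 38.9, 51.6 and 64.8 CPM in macrophage-like nuclei. Ptger2 was mainly in macrophage-like nuclei, at 20.1, 14.6 and 24.9 CPM. Ptger1 was at 3.40, 3.60 and 2.11 CPM in smooth muscle-like nuclei.

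Adra1a, an alpha-1 adrenergic receptor, was found in both macrophage-like and adipocyte-like nuclei. Macrophage-like nuclei held it at 189 (184 to 194), 200.5 (197 to 204) and 81.8 (68.1 to 97.4) CPM, from 5803, 10591 and 125 UMIs. The aneurysm library was 2.45 times lower than smoke (2.06 to 2.95). Of macrophage-like nuclei 32.8%, 35.5% and 9.74% held a UMI, beside 2.81% and 7.28% of B-like nuclei in room air and smoke; the thinned shares were 12.9%, 12.8% and 6.25%. The clusters were unlike one another. Cluster 2, the largest, was at 189.9, 209 and 193 CPM, with aneurysm over smoke 1.08 times lower (0.881 to 1.34). Cluster 6 was at 157, 185 and 28.2 CPM, 6.55 times lower in aneurysm than in smoke (3.56 to 13.7), from 10 UMIs in 139 nuclei. Cluster 13, with most Ednrb, had little Adra1a, at 14.3, 27.7 and 18.7 CPM. Besides the share of cluster 13, those of clusters 3 and 4 differed too. They held 24.6% and 14.8% of macrophage-like nuclei in smoke and 1.65% and 2.06% in aneurysm. The part of each share, and of the lower level inside cluster 6, in the Adra1a class value was not tested. Of the 10 adipocyte markers 9 had a UMI in macrophage-like nuclei of each library (532, 617 and 679.8 CPM summed, Lep at 0); their sum was highest in aneurysm, where Adra1a was lowest, and their part was not tested.

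Adipocyte-like nuclei held more Adra1a than any other class with at least 50 nuclei in the same library, 640.2 (607 to 675) CPM in smoke and 605 (575 to 637) in aneurysm, a ratio of 1.06 (0.983 to 1.14) in favour of smoke. Cluster 20, of brown fat markers, was at 1031 and 1077 CPM, and cluster 19 at 261 and 310.5 CPM. Of adipocyte-like nuclei 76.4% and 51.5% held a UMI, and 36.9% and 38.5% after thinning. In smooth muscle-like nuclei Adra1a was at 40.4 (37.0 to 44.1), 31.1 (28.9 to 33.4) and 23.9 (18.9 to 29.7) CPM, highest in room air. B-like nuclei held 22.9 and 50.3 CPM in room air and smoke, and T or NK-like nuclei 68.6 and 58.3 CPM. The class value lay under both in smoke, and under that of T or NK-like nuclei in room air. Free RNA could therefore account for levels of this size, which was not tested. Among the large smooth muscle-like clusters, cluster 21 had the highest Adra1a, at 139, 112 and 97.5 CPM. The other alpha-1 receptors were scarce: Adra1d had 27, 43 and 1 UMIs in smooth muscle-like nuclei, and Adra1b was at 9.52, 8.41 and 13.8 CPM in fibroblast-like nuclei.

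Gucy1a1, the alpha subunit of soluble guanylyl cyclase, was at 136 (130 to 143), 154 (149 to 159) and 87 (77.2 to 97.6) CPM in smooth muscle-like nuclei. The aneurysm library was 1.77 times lower than smoke (1.57 to 2.00) and 1.56 times lower than room air (1.38 to 1.78). The clusters did not move together. Cluster 12 was at 68.1, 93.3 and 34.6 CPM, 2.70 times lower in aneurysm than in smoke (2.13 to 3.46). Cluster 9 was at 229, 233 and 173 CPM, 1.35 times lower (1.14 to 1.61). Cluster 21 was at 137, 124 and 216 (169 to 271) CPM, 1.74 times higher in aneurysm than in smoke (1.34 to 2.23). The class value depended on the clustering. At a resolution of 0.5, or with the libraries clustered one by one, aneurysm over smoke of the class reversed, to 0.77 and 0.20 on the log2 scale. The nuclei in the class were not the same. At resolution 0.5 it held 73 Gucy1a1 UMIs in aneurysm and 504 in smoke, and one by one 215 and 3676. In the main clustering it held 288 and 3684. The beta subunit gene Gucy1b1 was at 52.9, 59.2 and 35 CPM in smooth muscle-like nuclei, also lowest in aneurysm. The UMI ratio of the 2 genes was 2.57, 2.60 and 2.48 in the class, but its clusters differed. In cluster 21 that ratio was 1.45, 1.47 and 2.70, highest in aneurysm. It was lowest in aneurysm in cluster 9, at 3.48, 3.15 and 2.94, and in cluster 12, at 2.35, 2.58 and 1.805. Lymphatic endothelial-like nuclei held Gucy1a1 at 124 (85.6 to 175) and 194.5 (126 to 287) CPM in smoke and aneurysm, a ratio of 1.56 (0.891 to 2.71).

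**Figure D4:**
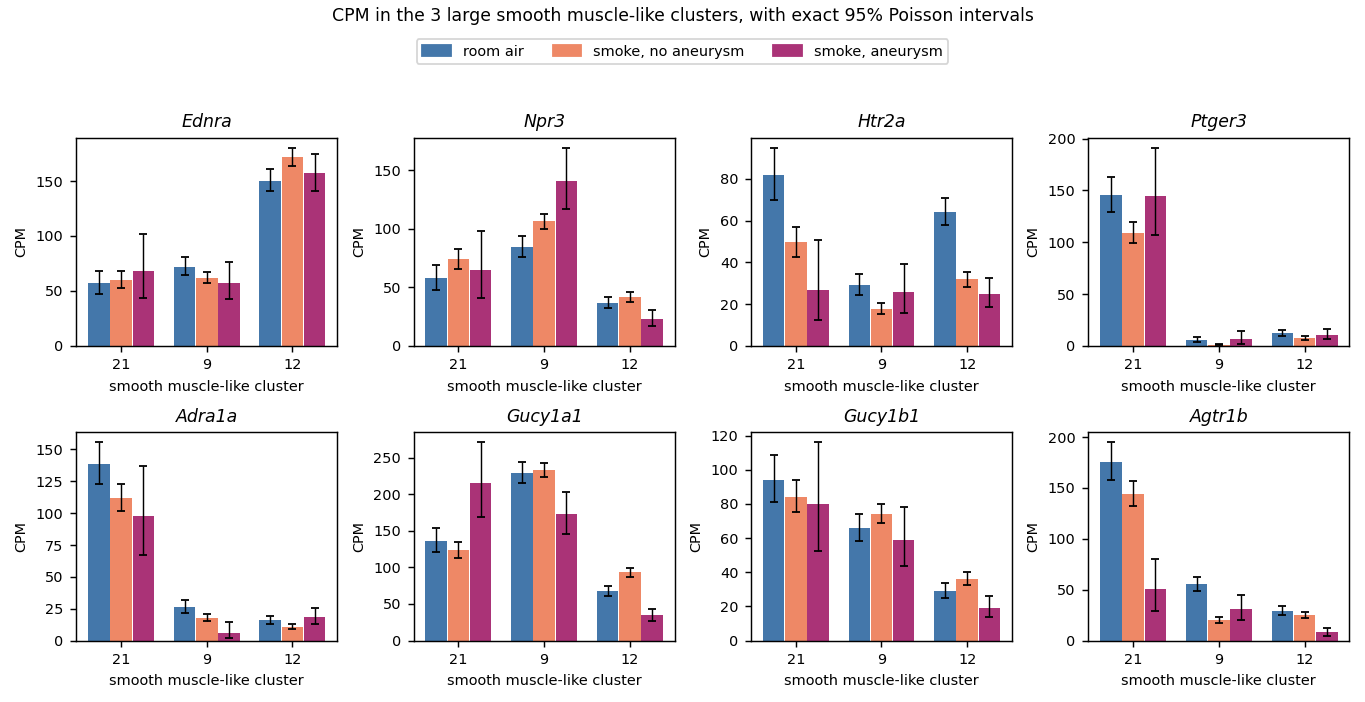
CPM (bars, axis from 0, with exact 95% Poisson intervals) of 6 of the genes and of Gucy1b1 and Agtr1b in smooth muscle-like clusters 21, 9 and 12 of each library. Htr2a is lower in smoke than in room air in all 3 clusters, Ednra is highest in cluster 12, and Gucy1a1 in aneurysm is highest of the 3 libraries in cluster 21 (216 CPM) but lowest in cluster 12 (34.6 CPM).

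Counted over smooth muscle-like, fibroblast-like, endothelial-like and macrophage-like nuclei, 31 pairs of a gene and a class had at least 20 UMIs in room air and smoke together. Of these, 10 differed by at least 1.5-fold, 6 higher and 4 lower in smoke. Over all genes 17.8% of 59949 pairs did so, 13.5% higher and 4.28% lower. For aneurysm against smoke, 24 of 33 pairs did so, 17 higher and 7 lower, beside 36.8% of all pairs, 15.2% higher and 21.7% lower. For aneurysm against room air 23 of 32 pairs did so, 16 higher and 7 lower, beside 31.7% of all pairs, 16.7% higher and 15% lower. At equal depth, with nuclei thinned to 1000 UMIs, 5 of 17 pairs passed for smoke against room air, beside 17.6% of all pairs. For aneurysm against smoke 6 of 17 passed, or 35.3% beside 34.5% of all pairs, so the share was near that of all genes. For aneurysm against room air 7 of 15 passed, or 46.7% beside 30.5%. Of the 17 pairs higher in aneurysm than in smoke at full depth, 4 were in classes at or above all other nuclei of the aneurysm library. Over all genes 4723 of 8740 such pairs were. Pairs enter this count through the library where they are high, so it supports nothing. The comparisons share libraries and are not independent of each other.

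**Figure D5:**
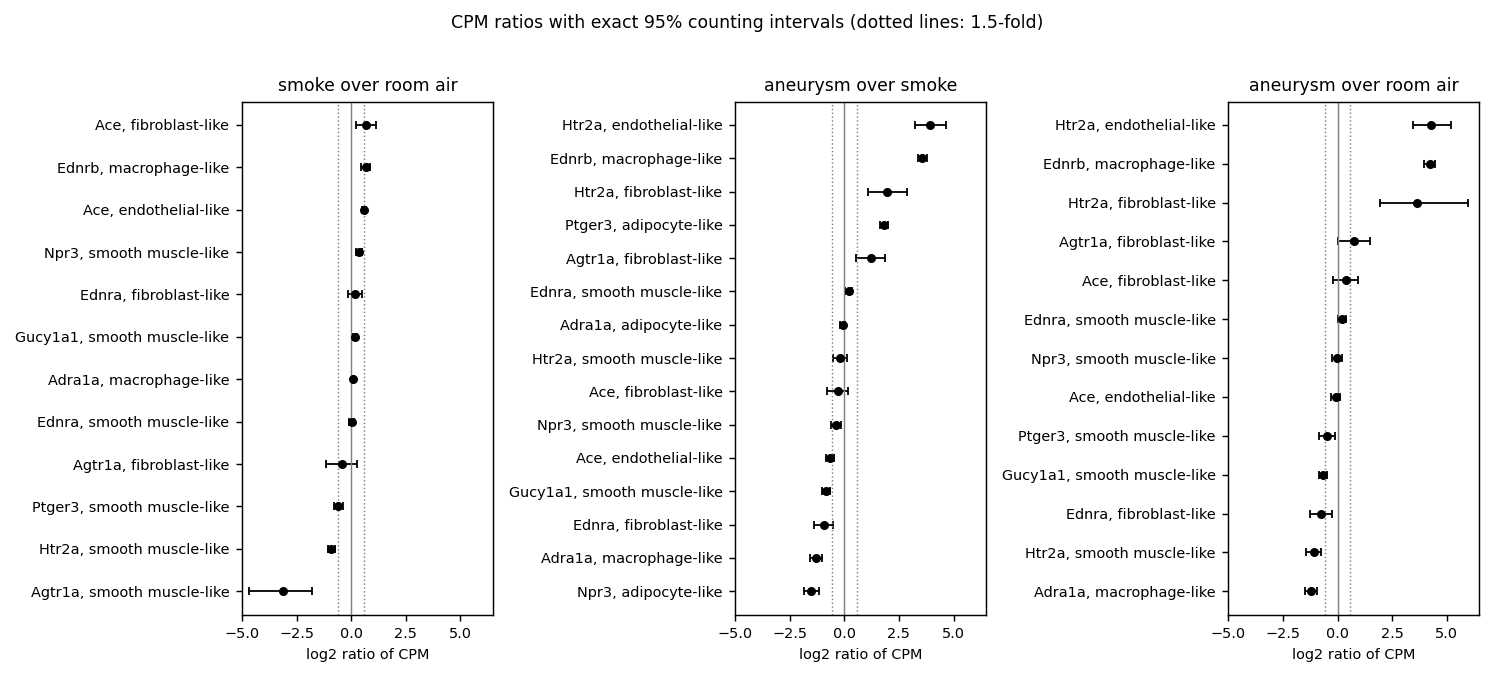
log2 ratio of CPM (points) with exact 95% counting intervals for pairs of a gene and a class at or above all other nuclei in the library where the gene was higher, in 3 comparisons (panels); dotted lines mark 1.5-fold and adipocyte-like nuclei are included where counted. Htr2a in endothelial-like and Ednrb in macrophage-like nuclei lie farthest right in aneurysm over smoke (15.3 and 11.9 times), and Npr3 in adipocyte-like nuclei farthest left (2.85 times lower).

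The wider pathway list held 76 genes of ligands, converting enzymes, receptors, cyclases, phosphodiesterases and kinases. In smooth muscle-like nuclei 10 of 53 counted genes were at least 1.5-fold higher and 7 lower in smoke than in room air (17% of all genes differed in either direction), with a median log2 ratio of -0.03 beside 0.08 for all genes. For aneurysm against smoke 12 of 49 were higher and 14 lower (32.4% of all genes), with a median of 0.05 beside -0.06. In endothelial-like nuclei 8 of 44 were higher and 1 lower in smoke (17.7% of all genes), and 7 of 40 were higher and 15 lower in aneurysm against smoke (32.9%). In fibroblast-like nuclei 7 of 40 were higher and 1 lower in smoke (21.4%), and 9 of 40 higher and 12 lower in aneurysm against smoke (35.3%). In macrophage-like nuclei 7 of 46 were higher and 6 lower in smoke (15.9%), and 19 of 41 higher and 10 lower in aneurysm against smoke (45.9%). Their median log2 ratio there was 0.47 beside 0.05 for all genes. The pathway counts and medians are at full depth and were not repeated with thinned nuclei. For the 10 genes, the share past 1.5-fold in aneurysm against smoke was 72.7% at full depth and 35.3% after thinning. Cluster 13 held 3.38% of macrophage-like nuclei in smoke and 47.7% in aneurysm, and its part was not tested.

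The listed genes with most UMIs in smooth muscle-like and fibroblast-like nuclei were Pde3a, Prkg1 and Pde1a, and Edn1, given above, came after Pde3a and Prkg1 in endothelial-like nuclei. Pde3a, a phosphodiesterase of cyclic AMP, was at 6087, 5726 and 3929 CPM in smooth muscle-like nuclei, lowest in aneurysm. Prkg1, the kinase that cyclic GMP switches on, was at 4353, 4045 and 3154 CPM there and at 1009, 1173 and 2280 CPM in fibroblast-like nuclei, where the aneurysm library was the highest. Pde1a, which calcium activates, was at 1443, 1336 and 1383 CPM in smooth muscle-like nuclei. In fibroblast-like nuclei Pde3a was at 756, 637 and 482 CPM and Pde1a at 395, 439 and 317 CPM, and in endothelial-like nuclei Pde3a was at 4765, 4414 and 2627 CPM and Prkg1 at 1951, 1813 and 1412 CPM. In macrophage-like nuclei the leaders were Tbxas1, thromboxane synthase, at 675, 692 and 453 CPM, and Lnpep, an aminopeptidase that binds angiotensin IV, at 365, 350.3 and 275 CPM, followed by Prkg1 at 291, 318 and 194 CPM.

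Across 23 combinations of class and library with at least 50 nuclei, the 3 genes most like each member in level were sought among genes with at least 200 UMIs, as Pearson's r of log2(CPM + 1), given as a description without a test. Ace was most like Heg1 (r = 0.91), Bmp4 (0.90) and Gxylt2 (0.89), and Agtr1a most like A330076H08Rik (0.96), A230057D06Rik (0.96) and Grik2 (0.95). Ednra was most like the collagen gene Col6a3 (0.95), 1500009L16Rik (0.92) and Bmpr1b (0.92). Ednrb was most like Lyve1 (0.80), a marker of lymphatic vessels and of some macrophages, Stard8 (0.80) and Derl2 (0.77). Npr3 was most like Enpp2 (0.93), Mettl24 (0.89) and Ntrk3 (0.89), and Htr2a most like Snai2 (0.84), Ccdc68 (0.83) and Bdnf (0.83). Ptger3 was most like Kcnk3 (0.95), the lipid droplet gene Plin4 (0.91) and Acot11 (0.90), and Adra1a most like Pkm (0.95), Slc25a44 (0.95) and Adcy3 (0.92). Gucy1a1 was most like its partner subunit Gucy1b1 (0.90), Serpine2 (0.90) and Glis1 (0.90). Agt was under the minimum of UMIs. Among the members themselves Npr3 and Ptger3 were most alike (0.81), and Adra1a and Gucy1a1 least (-0.60). The points share libraries and depth.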

How the data were processed

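Counts of UMIs per gene and nucleus were used as deposited by the authors, 1 table for each of the 3 libraries. A header line in the tables names cellranger 8.0.1. The processing notes by the submitters list a different release, Cell Ranger 2.2.0, with STAR and the build mm10. Which release made the tables, and whether introns or strand entered the counting, is not stated in the sources used here. Gene IDs matched GENCODE vM21 for 32012 of 33696 features.

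Of 35396 barcodes, 30730 nuclei with at least 500 UMIs, 300 genes and under 5% mitochondrial UMIs were kept. The deposited libraries held 73891039, 117247048 and 15634797 UMIs. Counts were scaled to 10000 per nucleus, and 2000 variable genes, with the 10 genes and the pathway list left out, 30 principal components, 20 neighbours and Leiden resolution 1 gave the clusters (scanpy 1.11.5, python-igraph 0.11.9, scikit-learn 1.9.0). Clusters were named from 20 marker lists, where the best list scored at least 0.5, led by 0.25 and had 3 markers in at least 5% of nuclei, and no other list had more genes among the top 10. A cluster with a median depth under 1 / 3 of that of its libraries and no own marker in the top 10 stayed unnamed. The score thresholds were set after seeing the data. Names are therefore rebuilt, not the authors'. Scrublet marked 367, 404 and 1 nuclei as doublets; none was removed, and the highest 10% of scores were left out as an alternative.

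UMIs were summed per class and library. CPM carry exact Poisson and shares Clopper-Pearson 95% intervals (scipy 1.17.1). A pair needed 50 nuclei in both libraries and 20 UMIs in both together, and 1.5-fold was the size called. A count of 0 was read against 3 UMIs. For shares, nuclei were thinned to 1000 UMIs, which left out 3661. The ratio intervals were tested on simulated data. All 10 members are named; pathway genes are named as partners of a member or as the 3 with most UMIs in a class. Of the partner genes, 1 is not reported here. The members and lists were chosen with earlier results of these data known. Alternatives changed the clustering, the filters, the scaling, the depth and the minimum of UMIs.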

Additional observations from a re-analysis of the deposited data

Results flagged for a closer look

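Htr2a went opposite ways between aneurysm and room air in different classes. The log2 ratio was 4.29 in endothelial-like and -1.10 in smooth muscle-like nuclei, a difference of 5.39. It was 3.63 in fibroblast-like nuclei, a difference of 4.72 from smooth muscle-like nuclei. With 1 library a group these differences were not tested.

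Clusters that could not be named held some of the genes above the level in T or NK-like nuclei of the same library. The lower bound of the CPM in the cluster lay above the upper bound in those nuclei. Ace was at 36.3 CPM (26.7 to 48.2) in room air and 70.3 CPM (59.7 to 82.3) in smoke in cluster 7, led by Treml4 and Adgre4. Ednrb was at 37.9 CPM (30.2 to 47.0) there in smoke. In cluster 1 Ptger3 was at 8.34 CPM (5.28 to 12.5) in smoke, and Adra1a was at 211 CPM (195 to 228) in room air and 189 CPM (173 to 206) in smoke.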

How the results depend on the processing

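Of 853 values recomputed under another setting, 724 stayed inside the counting interval of the main ratio, 123 moved outside it and 6 reversed. Whether a value kept its 1.5-fold call was not part of this count, and a value that moved could still keep it. The reversals on the log2 scale were Agtr1a in fibroblast-like nuclei, aneurysm over room air, at -0.019 with at least 1000 UMIs a nucleus, and Ednrb in cluster 16, aneurysm over room air, at -0.53 after thinning. Gucy1a1 in smooth muscle-like nuclei reversed at resolution 0.5 to 0.77 for aneurysm over smoke and 0.64 for aneurysm over room air, and with libraries clustered one by one to 0.20 and 1.11. Another clustering also changed the nuclei in the class. One by one, it held 628 Gucy1a1 UMIs in room air, beside 1682 in the main clustering. The cause of the reversals was not tested. For smoke over room air, aneurysm over smoke and aneurysm over room air, thinning left 5 of 17, 6 of 17 and 7 of 15 pairs past 1.5-fold, beside 17.6%, 34.5% and 30.5% of all gene and class pairs. With at least 50 UMIs a pair, 6 of 25, 16 of 25 and 14 of 21 passed, beside 12.8%, 31.5% and 26% of all pairs. Limited, after seeing the data, to classes at or above all other nuclei in the library where the gene was higher, 5 of 12, 8 of 12 and 8 of 13 passed, beside 17.9%, 36.4% and 32.9%; pairs enter this count through the library where they are high, so it supports nothing. The median log2 ratio of all genes was 0.10 in fibroblast-like nuclei for both comparisons with room air and in endothelial-like nuclei for smoke over room air. The aneurysm library, at a median of 1443 UMIs, limits most values. No paired analysis was possible because each group is 1 library.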
